A study of Mus musculus with 12 samples.

Results

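The genes described here are the members of the 4 mouse Hox clusters, Hoxa, Hoxb, Hoxc and Hoxd, measured in mammary tumours of mice with and without the retinoic acid receptor gene Rarb. A probe was taken as a Hox probe where its accession led to a mouse symbol made of a cluster name and a number only, which gave 39 genes on 43 probes. Of these genes 4 had 2 probes each. They stood among 20660 genes named on the array, and 21 of the 39 passed the filter on dim probes, among 13351 genes that did.

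Hox genes encode homeodomain transcription factors that give cells of the embryo their position along the body axis, and many stay switched on in the connective tissue cells of adult organs. Within a cluster the genes lie in the order of their numbers: genes of low number, at the 3′ end, act toward the head, and genes of high number, at the 5′ end, act toward the tail. Genes of the same number in different clusters are paralogs. Retinoic acid, bound by receptors such as the one Rarb encodes, switches on 3′ Hox genes in embryos, and Polycomb proteins keep the clusters silent elsewhere. In the mouse mammary gland Hoxc6 is needed for normal development, and Hoxa9, Hoxb9 and Hoxd9 act together in the growth of the gland in pregnancy.

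All animals were of the FVB strain and carried the MMTV-wnt1 transgene, in which a mammary tumour virus promoter drives Wnt1 chiefly in the mammary epithelium. Laser capture microdissection, the cutting of chosen cells from a stained section, gave 4 groups of 3 samples: stroma of Rarb -/- tumours (KO stroma), stroma of Rarb +/+ tumours (WT stroma), epithelium of Rarb -/- tumours (KO epithelium) and epithelium of Rarb +/+ tumours (WT epithelium). Both compartments came from the same 6 tumours, which the titles number 1, 3 and 4 in KO and 1, 2 and 3 in WT. Each RNA was labelled with Cy3 and hybridised on a 2-colour Agilent array against Cy5-labelled Universal Mouse Reference RNA, a pool of RNA from mouse cell lines, so a value below is log2 of tumour over reference unless it is called a difference. Separate mice are not stated for the tumours, so each p-value reflects no more than the spread among these arrays, which may be partly technical. Every cell of a KO animal lacks the receptor, stroma and epithelium alike.

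The tumour signal was well above background, by the scanner software's flag, for between 36.0% and 46.3% of probes per array. The Rarb probe was above background on all 12 arrays, at 1.83, 2.09 and 0.57 in KO stroma, -0.01, -0.29 and 1.37 in WT stroma, -1.13, 1.36 and 0.50 in KO epithelium and -0.76, 0.85 and 0.77 in WT epithelium. Its position relative to the deletion is not given here, so it does not check the labels. Each compartment was on a slide of its own, and within a slide KO and WT lay in different rows, so slide cannot be told apart from compartment, nor slide row from genotype. The stromal captures held epithelial RNA: 7 to 10 of 11 luminal epithelial markers were above background in KO stroma and 8 or 9 in WT stroma. WT stroma replicate 2 stood apart in its lymphocyte markers, whose mean was 4.69 on that array, against -0.58 and -0.56 on the other WT stroma arrays and -0.73 to 0.65 in KO stroma. In bulk samples such as these, fewer cells of a type and less RNA per cell cannot be told apart.

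The Hox genes detected lay mainly in the 3′ and middle parts of the clusters, as counted over all probes. On at least 1 array of a group, 22 of the 39 genes were above background in KO stroma, 20 in WT stroma, 16 in KO epithelium and 20 in WT epithelium. Of all named genes, 63.4% were in KO stroma, 65.7% in WT stroma, 64.1% in KO epithelium and 66.2% in WT epithelium by the same rule. Among the 12 genes of paralog groups 1 to 4, 9 were detected in KO stroma, 8 in WT stroma, 7 in KO epithelium and 9 in WT epithelium. Among the 16 genes of groups 9 to 13, the counts were 4, 4, 3 and 3 in that order of groups. Of those 16, Hoxa10, Hoxa13, Hoxc11, Hoxc12 and Hoxd9 to Hoxd13 gave no signal above background in either colour on any array. At lower positions Hoxa5, Hoxb1 and Hoxc8 gave none either. How far the counts by position reflect probes that do not hybridise was not tested. Per array, 12, 20 and 18 Hox genes were detected in KO stroma replicates 1, 3 and 4, and 16, 13 and 17 in WT stroma replicates 1, 2 and 3. KO epithelium had 11, 15 and 8 and WT epithelium had 16, 14 and 14. The lowest stromal count, of KO replicate 1, stood on the array with the smallest share of probes above background, 36.0%.

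**Figure D1:**
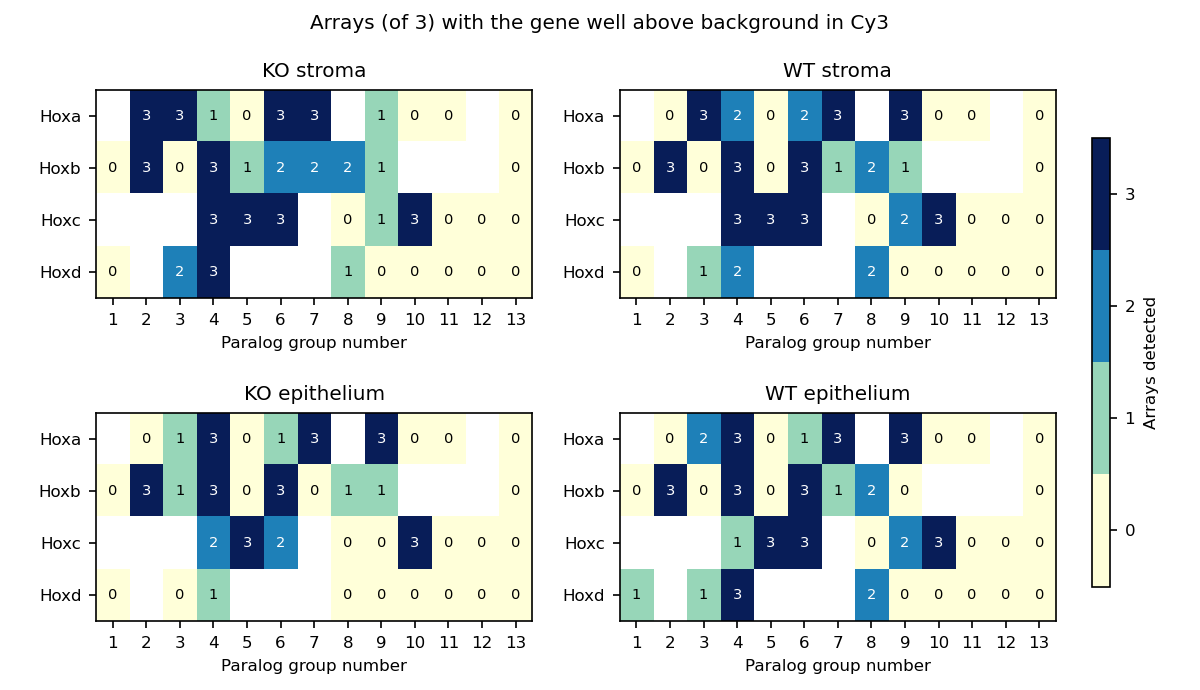
Number of arrays, of 3 per group, on which each of the Hox genes shown was well above background in the tumour channel. Rows are the 4 clusters, columns the paralog group number, and white cells are positions with no gene on the array or not shown. Genes of groups 11 to 13 are at 0 in all 4 panels.

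Hoxa7, Hoxb2, Hoxb4, Hoxc5 and Hoxc10 were above background on all 12 arrays. Hoxa5, Hoxa10, Hoxa11, Hoxa13, Hoxb1, Hoxb13, Hoxc8, Hoxc11, Hoxc12, Hoxc13 and Hoxd9 to Hoxd13, 15 genes in all, were above it on none. For Hoxa11, Hoxb13 and Hoxc13 the reference RNA was above background on all 12 arrays, so these 3 probes did hybridise, and the tumour RNA gave no signal above background. For the other 12 neither colour did on any array, so the arrays do not show whether those probes hybridise. Hoxb3 was detected on 1 KO epithelium array, Hoxb5 on 1 KO stroma array and Hoxd1 on 1 WT epithelium array, and these 3 were not tested. Among the 21 tested genes, Hoxa2 was the 1 seen in a single group, on 3 of 3 KO stroma arrays.

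The first comparison asked how the loss of Rarb goes with Hox expression in the tumour stroma. Hox genes were higher in KO stroma than in WT stroma, Hoxa2, Hoxa3 and Hoxc4 among them, and no Hox gene was lower: 4 of 21 tested genes passed, where 3.51% of all genes tested were called higher and 2.87% lower. Hoxa2, Hoxa3 and Hoxc4 belong to paralog groups 1 to 4, of which 9 genes were tested. None of 8 tested genes of groups 5 to 8 and none of 4 of groups 9 to 13 passed, and a difference by position was not tested. Hoxa2 passed the filter through KO stroma alone, so that its entry into the test rested on that group.

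Promoter sequences are shown for Hoxa2, Hoxa3 and Hoxc4, the genes called between KO and WT stroma that were matched in the RefSeq table. That table (build GRCm38.p6) matched 22 of the 39 Hox genes. Each line holds the 250 bases before the annotated start, 5′ to 3′ on the gene's strand. Capitals mark, on either strand, the retinoid receptor half-site AGGTCA (its reverse reads TGACCT) or the site TGATNNAT, bound by Hox proteins with their Pbx partners. Hoxa2 lies at chr6:52164832-52165081 on the minus strand, Hoxa3 at chr6:52213068-52213317 on the minus strand and Hoxc4 at chr15:103034145-103034394 on the plus strand.
Hoxa2: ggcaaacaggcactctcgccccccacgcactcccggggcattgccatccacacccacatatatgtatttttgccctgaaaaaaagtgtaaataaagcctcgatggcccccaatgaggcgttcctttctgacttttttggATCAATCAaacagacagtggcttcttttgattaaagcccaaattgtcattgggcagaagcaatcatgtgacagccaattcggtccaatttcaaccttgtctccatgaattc
Hoxa3: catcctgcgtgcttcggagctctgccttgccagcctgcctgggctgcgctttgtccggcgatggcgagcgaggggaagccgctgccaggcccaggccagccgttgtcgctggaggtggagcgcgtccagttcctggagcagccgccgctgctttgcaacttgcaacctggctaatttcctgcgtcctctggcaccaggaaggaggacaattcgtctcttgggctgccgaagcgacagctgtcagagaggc
Hoxc4: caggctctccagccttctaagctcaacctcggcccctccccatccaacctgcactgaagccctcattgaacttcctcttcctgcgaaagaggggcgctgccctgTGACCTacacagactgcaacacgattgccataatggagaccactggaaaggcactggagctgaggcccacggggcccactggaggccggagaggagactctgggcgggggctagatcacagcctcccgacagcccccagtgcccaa
The Hoxc4 window holds the half-site once, 146 to 141 bases before the start, and the Hoxa2 window holds the Pbx site once, 111 to 104 bases before it. The Hoxa3 window holds neither set of letters. Among all 32851 promoters of the table, 14.02% hold the half-site and 7.683% the Pbx site, and among the 22 Hox promoters 6 and 4 do. Of the Hox genes called in any comparison 5 were matched, with Hoxd4 and Hoxd8 (below) among them. The half-site lies in 3 of these 5, Hoxc4, Hoxd4 and Hoxd8, and the Pbx site in 1. The direct repeat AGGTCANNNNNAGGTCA, searched on both strands, lies in 3 of all promoters and in 0 of the Hox windows. These matches describe the letters of the windows.

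Hoxa2, which patterns the hindbrain and the pharyngeal arches, gave -0.09, -0.42 and 0.01 in KO stroma, against -1.36, -1.21 and -1.02 in WT stroma. The groups were well apart, and no WT stroma array had the gene well above background. The fitted difference was 1.03 ± 0.18 (SE; limma adjusted p = 0.0126), and as a bound from the Cy3 channel Hoxa2 was at least 1.58-fold higher in KO stroma. That bound sets the mean KO signal against the lowest signal of any probe flagged above background on each WT array, or the measured signal where higher. Other probes went unflagged at higher signals, such as Hoxc9 at 7.45 (log2) on KO stroma replicate 1, so this and later bounds are not strict lower limits. In some later bounds the mean of the brighter group also takes in arrays that were not flagged. Without WT stroma replicate 1 the adjusted p was 0.0586.

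Hoxa3, needed for the thymus and parathyroid glands, gave -0.14, -0.27 and 0.34 in KO stroma, against -2.01, -1.74 and -1.76 in WT stroma. All 6 arrays were above background and the groups did not come near each other. The difference was 1.81 ± 0.31 (SE; limma adjusted p = 0.0126), a fold of 3.51. Without WT stroma replicate 1 it was 1.73 (adjusted p = 0.0575).

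Hoxc4, which acts in the patterning of the vertebrae, gave -0.48, 0.13 and -0.71 in KO stroma, against -2.37, -2.14 and -2.11 in WT stroma. Again all 6 arrays were above background with no overlap. The difference was 1.85 ± 0.28 (SE; limma adjusted p = 0.00700), a fold of 3.61, and it passed in each of the 12 fits that left out 1 array. Without the lymphocyte-rich WT stroma replicate 2, the differences of Hoxa2, Hoxa3 and Hoxc4 were 1.02, 1.86 and 1.89, with limma adjusted p of 0.0364, 0.0326 and 0.0221.

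**Figure D2:**
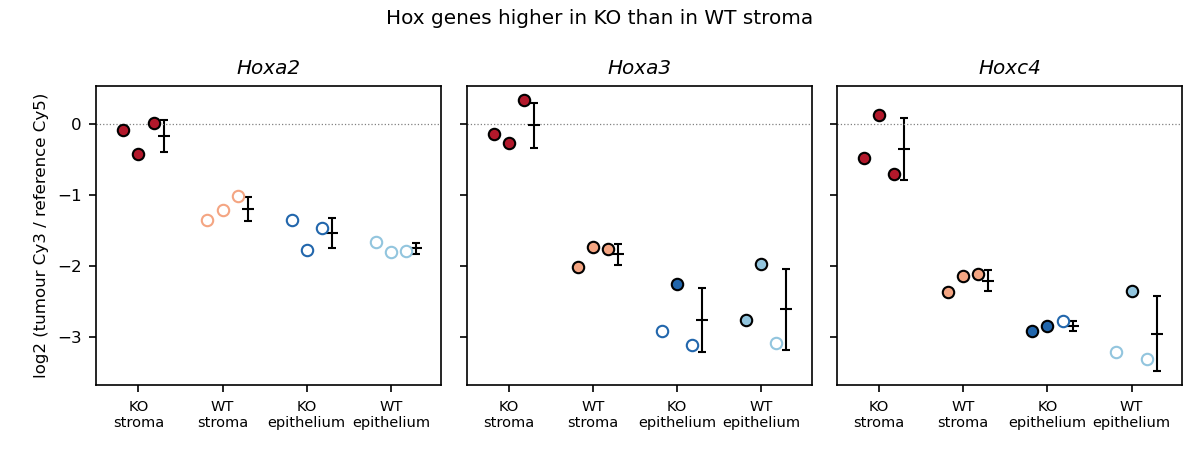
Log2 of tumour over reference for Hoxa2, Hoxa3 and Hoxc4, which were higher in KO stroma than in WT stroma. Points are arrays, filled where the gene was well above background and open where it was not, and bars give the mean and SD of 3 arrays. In Hoxa3 and Hoxc4 the KO stroma arrays lie at -0.71 or above, and every other array lies at -1.74 or below.

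The difference lay in the tumour channel. Quantile-normalized Cy3 alone was higher in KO stroma by 0.84 for Hoxa2, 1.75 for Hoxa3 and 1.75 for Hoxc4 (log2), while the reference Cy5 differed by -0.14, -0.04 and -0.02 in the same order. The background offset used before the ratio shrinks differences of dim spots. With Agilent's own processed signals, the differences were 3.33, 2.58 and 3.22, and of these 3 genes only Hoxa2 still passed. Hoxa6 (0.94) passed there as well. When only the 6 stromal arrays were fitted, Hoxa3 and Hoxc4 passed and Hoxa2 did not.

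The 3 uncalled genes with the smallest p were Hoxb7, Hoxb6 and Hoxd3. Hoxb7, whose human counterpart drives FGF2 in breast cancer cells, gave -1.46, -0.26 and -0.77 in KO stroma, against -1.80, -1.74 and -1.18 in WT stroma (difference 0.74 ± 0.29 SE; limma adjusted p = 0.157). The groups overlapped, and without KO replicate 3 the difference was 0.46. Hoxb6 gave -0.35, 0.74 and -0.10 in KO stroma, against -0.53, -0.48 and -0.57 in WT stroma (0.62 ± 0.24 SE; limma adjusted p = 0.164), and without KO replicate 3 its difference was 0.30. Hoxd3, which in human endothelial cells promotes the growth of vessels, gave -0.19, 0.29 and 0.25 in KO stroma, against -0.24, -0.86 and 0.01 in WT stroma (0.47 ± 0.23 SE; limma adjusted p = 0.261), again with overlap. Without WT stroma replicate 2 the Hoxd3 difference was 0.23.

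Over the 21 genes, 18 differences were above 0 and their median was 0.47, where 48.6% of all genes were above 0 and their median was -0.01. The 3 below 0 were Hoxa4 (-0.17), Hoxa9 (-0.02) and Hoxb8, which lay within 0.01 of it, and the sign of each turned under at least 1 other scaling. In 7 of 20 genes with all 6 values, the KO and WT arrays did not overlap, where 26.2% of all genes did not. Beside the 4 called genes these were Hoxb6, Hoxa6 and Hoxb4. Hoxa6 gave 0.17, 0.26 and 0.19 in KO stroma, against -0.07, 0.02 and -0.02 in WT stroma, and Hoxb4 gave 0.82, 0.52 and 0.80, against -0.63, -0.07 and 0.50. The other 9 uncalled genes differed by between 0.01 and 0.79, the highest being Hoxc6, and of these Hoxb9 (0.12) and Hoxd8 (0.01) turned sign under another scaling.

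Markers of several cell types moved with these genes. The mean of 12 fibroblast markers was 2.84 to 3.13 in KO stroma, against 0.10 to 1.53 in WT stroma, and all 12 were above background on all 6 arrays. Of these 12, 5 were called higher in KO stroma. The mean of 8 macrophage markers was 3.72 to 4.25 in KO stroma, against 1.22 to 2.74 in WT stroma, with 3 called higher. The mean of 11 luminal epithelial markers was lower in KO stroma, 0.57 to 1.66 against 2.10 to 3.08 in WT stroma, with 5 called lower. Wnt1, the transgene of the epithelium, gave 2.90 to 3.80 in KO stroma, against 6.53 to 7.20 in WT stroma, on its brighter probe. The mean of 8 endothelial markers was 1.57 to 2.57 in KO stroma, against 0.93 to 1.38 in WT stroma, and that of 9 basal epithelial markers 1.83 to 3.20, against 3.46 to 3.85, neither range overlapping. No single endothelial, basal, adipocyte (6 tested) or lymphocyte marker (7) was called between KO and WT stroma, and muscle (3) and Schwann cell markers (5) had 1 called lower each. The part of this difference in cell content in the Hox results was not tested.

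**Figure D3:**
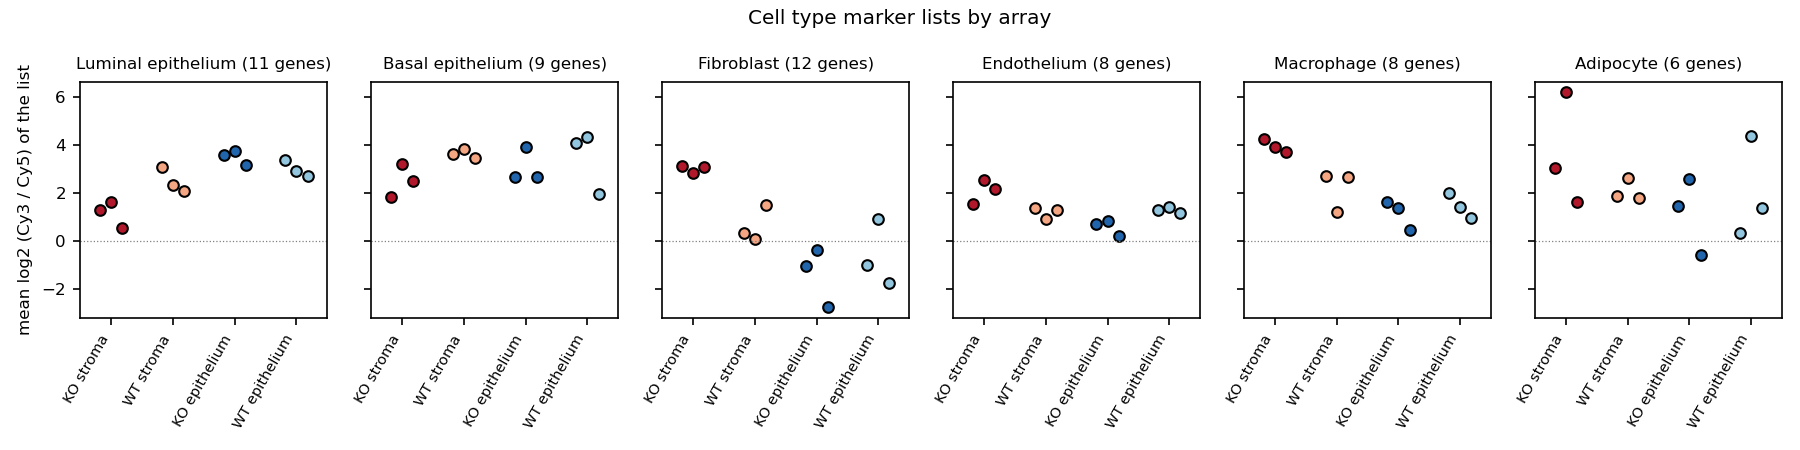
Mean log2 of tumour over reference for 6 lists of cell type markers, 1 point per array. In the fibroblast panel the 3 KO stroma arrays lie at 2.84 to 3.13, above all 9 other arrays, and in the luminal panel they lie at 0.57 to 1.66, below all others.

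In epithelium the same comparison called 0 of 21 Hox genes in either direction with limma, where 0.00749% of all genes were called higher and 0% lower. At an unadjusted p under 0.05, 2 Hox genes and 1078 of all 13351 genes differed. The median Hox difference was -0.26, against 0.03 over all genes, and 8 of 21 were above 0. Of the genes called in stroma, the epithelial differences were 0.21 (Hoxa2), -0.15 (Hoxa3) and 0.11 (Hoxc4), none called.

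The smallest p in epithelium belonged to Hoxc10, Hoxd8 and Hoxa7. Hoxc10, which acts in the lumbar spinal cord and hindlimb, gave -1.50, -0.95 and 0.23 in KO epithelium, against -0.35, 0.91 and 3.13 in WT epithelium. The groups overlapped, and the difference of -1.97 ± 0.78 (SE) did not pass (limma adjusted p = 0.613). It rested on WT epithelium replicate 3, without which it was -1.03. On that array the reference signal of the Hoxc10 spot was high as well, 13.70 on the log2 scale against 10.24 to 10.99 on the others. The array had 211 spots flagged as non-uniform, where the others had 3 to 16, although this spot was not one of them.

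Hoxa7 gave -1.23, -0.59 and 0.23 in KO epithelium, against -0.34, 0.42 and 2.49 in WT epithelium (difference -1.39 ± 0.65 SE; limma adjusted p = 0.626). Here too the highest value came from WT replicate 3, and without it the difference was -0.57. Its reference signal on that array was 11.01, against 9.10 to 10.77 on the others. Hoxc5 was highest on the same array, at 1.16 against -1.46 to -0.09 elsewhere, with a reference signal of 13.01 inside the range of the other arrays.

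**Figure D4:**
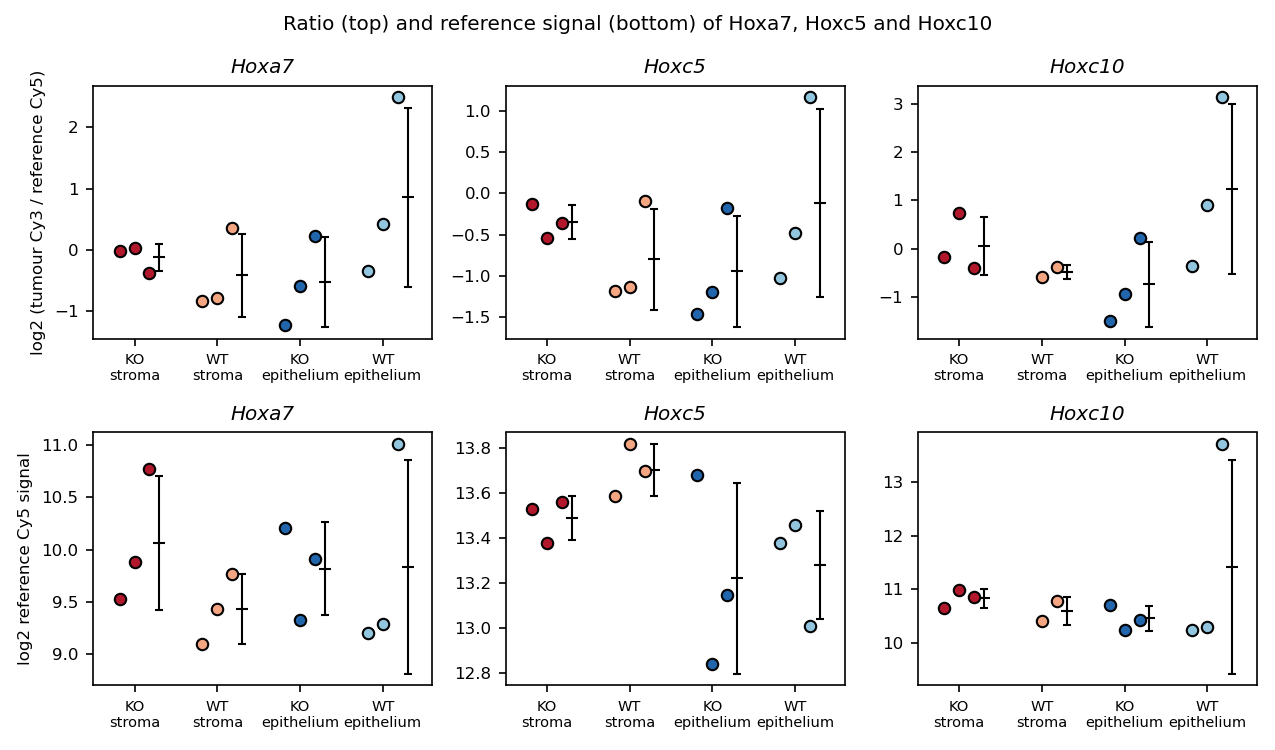
Log2 of tumour over reference (top) and log2 reference signal (bottom) of Hoxa7, Hoxc5 and Hoxc10, 1 point per array, with mean and SD per group. WT epithelium replicate 3 is the highest point of the top panels, and for Hoxc10 its reference signal of 13.70 stands above all others.

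Hoxd8 gave -1.34, -1.26 and -1.39 in KO epithelium, against -0.51, -1.20 and -0.29 in WT epithelium. The KO arrays were all below the WT arrays and none was well above background, while 2 of 3 WT arrays were. Its difference of -0.66 ± 0.29 (SE) was not called (limma adjusted p = 0.613). The bound put the KO signal 1.32-fold lower, with the unflagged WT array in the WT mean. In all, 3 Hox genes did not overlap between KO and WT epithelium (Hoxd8 and Hoxb7 lower, Hoxb6 higher in KO), where 14% of all genes did not.

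The next comparison set stroma against epithelium of the same tumour. Over both genotypes 9 of 21 tested Hox genes were higher in stroma and none was lower, where 8.37% of all genes were called higher and 6.63% lower. Among them were Hoxa2, Hoxa3, Hoxb7, Hoxc4, Hoxc6, Hoxc9, Hoxd4 and Hoxd8, from all 4 clusters. The same 9 were called within the KO tumours, where 10.2% of all genes were higher and 9.86% lower. Within the WT tumours 0 were called, as 0.00749% of all genes were called higher there and 0% lower, although 8 Hox genes and 1176 of all genes had an unadjusted p under 0.05. In KO tumours the mean of the fibroblast markers was 2.84 to 3.13 in stroma and -2.75 to -0.37 in epithelium, and in WT tumours 0.10 to 1.53 in stroma and -1.75 to 0.92 in epithelium. Other markers moved with the Hox calls too: in KO tumours 12 of 12 fibroblast, 8 of 8 macrophage, 4 of 8 endothelial and 2 of 6 adipocyte markers were called higher in stroma. There 10 of 11 luminal, 1 of 9 basal, 1 of 3 muscle and 2 of 5 Schwann cell markers were called lower, and 0 of 7 lymphocyte markers were called. The part of cell content in these Hox differences was not tested.

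The log2 ratios of Hoxa2, Hoxa3 and Hoxc4 were higher in stroma in 6 of 6 tumours. For Hoxa2, stroma was higher by 1.27, 1.36 and 1.48 in KO tumours 1, 3 and 4, and by 0.31, 0.59 and 0.77 in WT tumours 1, 2 and 3 (KO mean 1.37 ± 0.16 SE; limma adjusted p = 0.00382; at least 1.58-fold). As in the comparison of KO and WT stroma, Hoxa2 entered these tests through KO stroma alone, the group where it was high. Hoxa2 was well above background on no WT array of either compartment, so its WT values set dim signals against each other. There the reference Cy5 differed by -0.44, and Cy3 alone gave a WT mean of -0.055. Over both genotypes Cy3 alone gave 0.36 for Hoxa2, which did not pass (limma adjusted p = 0.0595). The bound there was 1.19-fold, with the unflagged WT arrays in the stromal mean.

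Hoxa3 was higher in stroma by 2.78, 1.98 and 3.45 in KO tumours and by 0.75, 0.24 and 1.33 in WT tumours (KO mean 2.74 ± 0.32 SE, 6.68-fold; limma adjusted p = 0.00373). Hoxc4 was higher by 2.44, 2.98 and 2.06 in KO and by 0.84, 0.21 and 1.20 in WT (KO mean 2.49 ± 0.26 SE, 5.62-fold; limma adjusted p = 0.00270). In KO epithelium Hoxa3 was well above background on 1 of 3 arrays and Hoxc4 on 2 of 3, so these folds rest in part on dim signals. For both genes, every KO tumour showed a larger step than every WT tumour. The means over both genotypes were 0.96 ± 0.12 for Hoxa2, 1.76 ± 0.23 for Hoxa3 and 1.62 ± 0.18 for Hoxc4 (SE; limma adjusted p of 0.00570, 0.00644 and 0.00510).

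Hoxc6 had the largest difference. It gave -3.50, -0.63 and -1.82 in KO stroma and -5.02, -4.46 and -5.92 in KO epithelium of tumours 1, 3 and 4, and -2.47, -3.80 and -2.04 in WT stroma and -4.27, -3.57 and -5.43 in WT epithelium of tumours 1, 2 and 3. Stroma was thus higher in 5 of 6 tumours, with WT tumour 2 the exception at -0.23. In KO epithelium Hoxc6 was well above background on 2 of 3 arrays. The KO mean was 3.15 ± 0.74 (SE, 8.88-fold; limma adjusted p = 0.0286) and the mean over both genotypes 2.40 ± 0.52 (SE; limma adjusted p = 0.0287). The KO call was lost without KO tumour 3 (2.81, limma adjusted p = 0.124), KO tumour 4 (2.68, adjusted p = 0.123) or WT tumour 1 (3.15, adjusted p = 0.0537), and that over both genotypes without any of these 3 or WT tumour 3 (1.97 to 2.37).

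Hoxd4, a gene of neck vertebrae with a known retinoic acid response in the hindbrain, was higher in stroma by 1.16, 1.43 and 2.43 in KO tumours and differed by -0.23, -0.21 and 0.66 in WT tumours. All KO tumours moved up and the WT tumours moved both ways (KO mean 1.67 ± 0.30 SE, 3.19-fold; limma adjusted p = 0.0130; mean over both genotypes 0.87 ± 0.21 SE; adjusted p = 0.0398). The call over both genotypes was lost in each of the 6 fits that left out 1 tumour (differences of 0.68 and above), and the KO call without KO tumour 3 (1.79, limma adjusted p = 0.0505) or KO tumour 4 (1.29, adjusted p = 0.0548). Hoxb7 was higher by 0.74, 1.86 and 1.45 in KO and differed by -0.14, 0.00 and 0.88 in WT (KO mean 1.35 ± 0.29 SE, limma adjusted p = 0.0213). The Hoxb7 bound in KO was 1.79-fold, with 2 of 3 KO stroma arrays flagged. The Hoxb7 mean over both genotypes was 0.80 ± 0.20 (SE; limma adjusted p = 0.0439), a call that held without KO tumour 1 and was lost without any other tumour (0.64 to 0.89). The KO call was lost without KO tumour 3 (1.10) or KO tumour 4 (1.30). With Cy3 alone Hoxb7 differed by 0.89 in KO (limma adjusted p = 0.0650) and 0.45 over both genotypes (adjusted p = 0.165).

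Hoxc9, which sets the identity of thoracic motor neurons, was higher in stroma by 1.13, 1.27 and 0.72 in KO tumours and by 0.63, 0.13 and 0.60 in WT tumours. Hoxd8 was higher by 1.01, 0.59 and 1.06 in KO and by 0.17, 0.17 and 0.31 in WT. Both ratios were higher in stroma in 6 of 6 tumours, but each gene was well above background on just 1 of 3 KO stroma arrays and on 0 of 3 KO epithelium arrays, so in most KO tumours neither side was. The KO means were 1.04 ± 0.19 (SE; limma adjusted p = 0.0137) for Hoxc9 and 0.88 ± 0.16 (SE; limma adjusted p = 0.0146) for Hoxd8. The Hoxd8 bound of 1.25-fold has the unflagged arrays in its KO stroma mean. Over both genotypes the means were 0.74 ± 0.13 for Hoxc9 and 0.55 ± 0.12 for Hoxd8 (SE; limma adjusted p of 0.0169 and 0.0267). With Cy3 alone none of these calls was kept: Hoxc9 differed by 0.47 in KO, 0.03 in WT and 0.25 over both genotypes, and Hoxd8 by 0.44, -0.097 and 0.17 (limma adjusted p of 0.183 and 0.312 over both genotypes). The Hoxc9 calls were lost without KO tumour 1 or KO tumour 3, and that over both genotypes also without WT tumour 1 or WT tumour 3 (0.69 to 0.72). The Hoxd8 calls were lost without KO tumour 1 or KO tumour 4, and that over both genotypes also without any WT tumour (0.51 to 0.56).

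**Figure D5:**
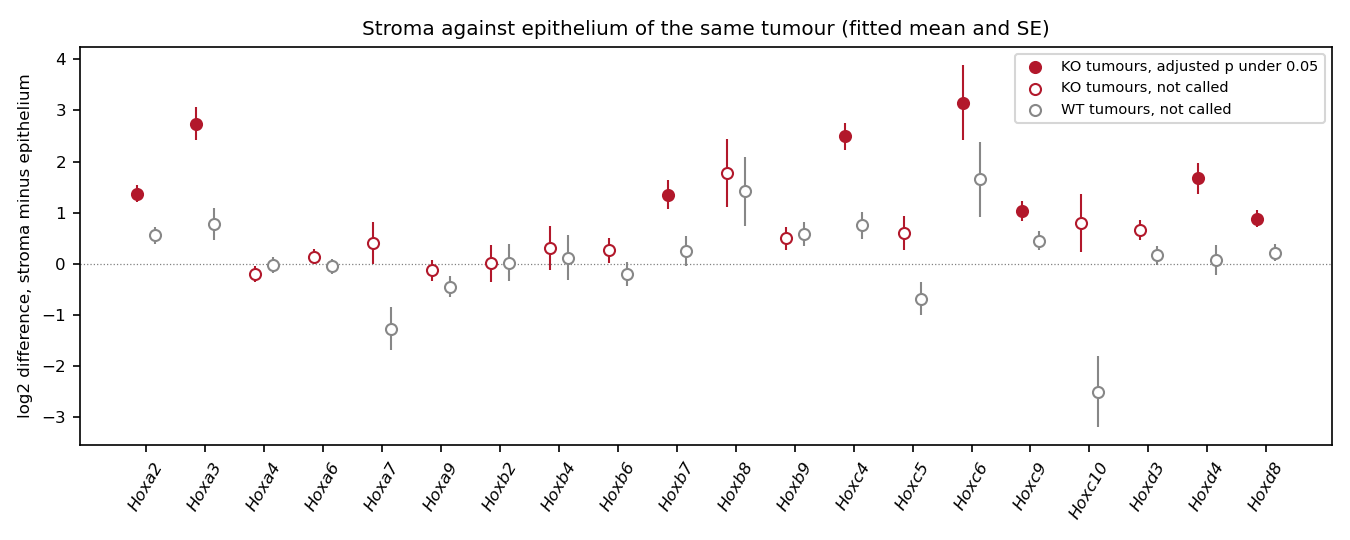
Log2 difference of stroma minus epithelium of the same tumour for the tested Hox genes shown, as mean and SE of 3 KO tumours (red, left) and 3 WT tumours (grey, right; 2 for Hoxc10). Filled points passed the test, which 8 KO values and 0 WT values did. Hoxc6 is highest in KO tumours at 3.15.

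The uncalled genes with the smallest p were the same 3 in KO tumours and over both genotypes. Hoxb8 was higher in stroma by 0.19, 2.63 and 2.49 in KO tumours and differed by 1.34, -0.11 and 3.02 in WT tumours (mean over both 1.59 ± 0.47 SE, limma adjusted p = 0.0673; KO mean 1.77 ± 0.67 SE, adjusted p = 0.111). The tumours spread widely, and 1 of the 6 lay below 0. Hoxb9 was higher by 0.63, 0.77 and 0.09 in KO and 0.44, 0.21 and 1.09 in WT (0.54 ± 0.16 SE, limma adjusted p = 0.0707; KO mean 0.50 ± 0.23 SE, adjusted p = 0.178), that is in 6 of 6 tumours. It was well above background on just 3 of 12 arrays. Cy3 alone differed by 0.13 over both genotypes and 0.06 in KO for Hoxb9, and the reference Cy5 by -0.26 and -0.32. Hoxd3 gave 0.45, 0.81 and 0.74 in KO and 0.17, -0.22 and 0.52 in WT (0.41 ± 0.14 SE, limma adjusted p = 0.0897; KO mean 0.67 ± 0.19 SE, adjusted p = 0.0539). The Hoxd3 bound in KO was 1.46-fold, with 2 of 3 KO stroma arrays flagged.

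In WT tumours the smallest p belonged to Hoxa2, above, and to Hoxc10 and Hoxa7, which were lower in stroma by value without passing. Hoxc10 had no value on WT stroma replicate 1, where its spot was flagged, and differed by -1.49 and -3.51 in WT tumours 2 and 3, so its fitted WT difference of -2.50 ± 0.70 (SE; limma adjusted p = 0.441) rests on those 2. Hoxa7 differed by -0.49, -1.20 and -2.13 in WT tumours (-1.27 ± 0.42 SE; limma adjusted p = 0.480) and by 1.21, 0.62 and -0.61 in KO tumours. For both genes the largest step came from tumour 3, whose epithelial array is described above. Hoxa2 had a WT mean of 0.56 ± 0.16 (SE; limma adjusted p = 0.441).

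Over the 21 genes, 16 mean differences were above 0 and the median was 0.54, against -0.03 over all genes. In KO tumours 19 were above 0 with a median of 0.80, against -0.03, and in WT tumours 14 with a median of 0.16, against 0.02. Of 20 genes with all values, 7 had log2 ratios that differed with 1 sign in all 6 tumours, all of them higher in stroma, where 15.1% of all genes had 1 sign. With Cy3 alone, the calls over both genotypes were 5 higher and 1 lower in place of 9 and 0, and in KO tumours 8 higher and 1 lower in place of 9 and 0. Hoxb7, Hoxc9 and Hoxd8 lost both calls there, and Hoxa2 that over both genotypes. The 8 in KO tumours thus include Hox genes that were not called as ratios. The gene called lower was Hoxa9, by -0.73 over both genotypes and -0.81 in KO, against -0.29 and -0.13 as ratios. Hoxc10 (-0.85) and Hoxa7 (-0.43) were lower in stroma over both genotypes without being called. Hoxb2, Hoxb4, Hoxb6, Hoxa4, Hoxa6 and Hoxc5, the remaining uncalled genes, differed by between -0.11 and 0.21 over both genotypes, and the sign turned under another scaling for each of these but Hoxa4.

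Whether the effect of Rarb loss differed between the compartments was tested as the difference of the differences. With limma 0 of 21 Hox genes passed, where 0% of all genes did in either direction, and 10 Hox genes and 2415 of all genes had an unadjusted p under 0.05. Among the smallest p were those of Hoxc4 (1.74 ± 0.36 SE, adjusted p = 0.100) and Hoxa3 (1.96 ± 0.45 SE, adjusted p = 0.118), by limma with tumour as a block. Since these values share their arrays with the comparisons above, they are not a further line of evidence. Over the 21 genes 18 were above 0 with a median of 0.67, against -0.06 over all genes.

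Partners of Hox proteins were called between the compartments but not between the genotypes. Of 9 cofactors of the Pbx, Meis and Pknox families, which bind DNA beside Hox proteins, 7 were tested. None was called between KO and WT stroma or between KO and WT epithelium, and the smallest p in stroma belonged to Meis3 (0.64 ± 0.23 SE, limma adjusted p = 0.129) and Meis1 (0.79 ± 0.56 SE, adjusted p = 0.474). Between the compartments 2 of the 7, Meis2 and Meis3, were higher in stroma over both genotypes and in KO tumours. Of all genes, 8.37% and 10.2% were called higher in these 2 comparisons. Meis2 averaged -0.32 in KO stroma, -0.77 in WT stroma, -1.81 in KO epithelium and -1.71 in WT epithelium (difference in KO 1.49 ± 0.28 SE, limma adjusted p = 0.0147; over both genotypes 1.22 ± 0.20 SE, adjusted p = 0.0119). Meis3 averaged 1.09, 0.45, 0.23 and -0.19 in that order (0.86 ± 0.23 SE, adjusted p = 0.0414; 0.75 ± 0.16 SE, adjusted p = 0.0273).

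Of 23 Polycomb and Trithorax genes, which hold Hox clusters silent or active, 19 were tested. Called lower were 1 in KO over WT stroma and 3 in stroma of KO tumours, where 2.87% and 9.86% of all genes were. Phc1, a subunit of the Polycomb complex that compacts chromatin, was lower in KO stroma, at a mean of -0.59 against 0.08 in WT stroma (-0.67 ± 0.16 SE; limma adjusted p = 0.0334), and no other member was called there. In KO tumours Ash2l, a subunit of the methyltransferases of active genes, and Ezh2 and Suz12, core subunits of the Polycomb methyltransferase, were lower in stroma than in epithelium. Their differences were -0.74 ± 0.18, -1.04 ± 0.26 and -0.66 ± 0.17 (SE; limma adjusted p of 0.0296, 0.0337 and 0.0368). Ash2l was the 1 member called over both genotypes (-0.55 ± 0.12 SE, adjusted p = 0.0318).

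Of 11 genes of retinoid receptors, retinoic acid binding and breakdown, 9 were tested. In KO over WT stroma 1 was called lower, where 2.87% of all genes were. Between the compartments of KO tumours 1 was called higher and 1 lower, where 10.2% and 9.86% of all genes were. Crabp2, which carries retinoic acid to its receptors, was lower in KO stroma, at a mean of 1.62 against 4.03 in WT stroma (-2.41 ± 0.28 SE; limma adjusted p = 0.00401). In epithelium its mean was 4.13 in KO and 4.16 in WT tumours. In WT tumours stroma and epithelium differed in Crabp2 by -0.13 ± 0.27 (SE; limma adjusted p = 0.945). Wnt1, the epithelial transgene, had the same order, at 2.90 to 3.80 in KO stroma and 6.53 to 7.20 in WT stroma. In epithelium Wnt1 was at 7.05 to 7.57 in KO and 7.14 to 7.67 in WT tumours. The part of cell content in the Crabp2 difference was not tested. In KO tumours Crabp2 was lower in stroma than in epithelium (-2.50 ± 0.27 SE, limma adjusted p = 0.00286) and Crabp1 was higher (1.48 ± 0.36 SE, adjusted p = 0.0336).

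Of 17 neighbours within 10 genes of a Hox gene in the gene table, 12 were tested, with a median difference of -0.33 between KO and WT stroma. Snx11, an endosome protein gene near the Hoxb cluster, was the 1 called there, at a mean of 1.97 in KO stroma against 0.52 in WT stroma (1.46 ± 0.29 SE; limma adjusted p = 0.0191), while no Hoxb gene was called. Of all genes, 3.51% were called higher in KO than in WT stroma, and between the compartments of KO tumours 10.2% higher and 9.86% lower. In KO tumours Snx11 was higher in stroma than in epithelium (1.36 ± 0.33 SE, limma adjusted p = 0.0305), and Hnrnpa1, an RNA-binding protein gene near Hoxc, was lower (-1.20 ± 0.21 SE, adjusted p = 0.0122). Of the 6 ParaHox and Cdx genes 0 passed the filter. Of 18 noncoding RNAs of the clusters 3 had a probe and 1, Hoxa11os, was tested. It stayed between -4.23 and -2.14 on all arrays and was called in no comparison (0.49 ± 0.39 SE in KO over WT stroma; limma adjusted p = 0.526).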

How the data were processed

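In each of the 12 samples, per the labels, tumour RNA carried Cy3 and a common reference RNA Cy5, with no dye swap. Spot intensity values (median signal, local background, Agilent's processed signal), flags and a log10 ratio are deposited, made with Agilent Feature Extraction 10.7.3.1, per the file headers. A deposited table of log2 values came without its method. Its epithelial columns (medians -0.05 to 0.02) ran as reference over tumour (r between -0.92 and -0.89 with the arrays) and, turned, are an alternative. Its stromal columns (medians -0.01 to 0.05) matched no array of theirs (r between -0.0050 and 0.0018), so their row order, scale and direction are unknown and they were not used.

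Intensities were corrected with normexp (offset 50) and loess in limma 3.58.1 (R 4.3.3), with control spots at weight 0 and non-uniform spots missing. A RefSeq gene table of GRCm38.p6 named 27235 of 55681 probes, and its promoter windows alone give coordinates. Probes well above background in Cy3 on fewer than 3 arrays were dropped, and a gene took its brightest remaining probe. KO and WT were compared by group means (8 residual degrees of freedom), and compartments and the interaction with tumour as a block (4). P-values were adjusted by Benjamini-Hochberg over 13351 genes, threshold 0.05. The tests were checked on simulated data.

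Titles pair the compartments by genotype and number. Across genes, deviations from group means correlated at 0.09, 0.29 and 0.23 within KO tumours 1, 3 and 4 and at 0.45, 0.29 and 0.25 within WT tumours 1, 2 and 3, and at most at 0.02 between tumours. The members and lists were chosen with earlier results of these data known. Statistics are given for each called Hox gene and the 3 uncalled with the smallest p, and in other lists for up to 4 called genes or, where none was called, the 2 with the smallest p. Bounds use Cy3 after loess and Aquantile, are open to dye bias and are not strict lower limits. The number of arrays limits the precision. An item counted in the totals is not reported here.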

Additional observations from a re-analysis of the deposited data

How the results depend on the processing

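The counts of called Hox genes between KO and WT epithelium and between stroma and epithelium of WT tumours were 0 under every alternative run. Between KO and WT stroma the count of 4 became 2 with the 6 stromal arrays alone (both among the 4), 2 with Agilent's processed signals (1 among the 4), 2 with median centring (both among the 4) and 0 when genes had to be above background on all 12 arrays, which left 5 Hox genes. None of those 5 was called in any comparison of the main fit, so under that filter no main call could be kept. The stromal count was 1 to 4 with 1 array left out. That 1, Hoxc4, was the count without WT stroma replicate 1. The 9 calls between stroma and epithelium became 5 with processed signals, 0 with the filter on all 12 arrays, and 4 to 7 with 1 tumour left out, 4 without WT tumour 1 or WT tumour 3 and 5 without KO tumour 3 or KO tumour 4. The 9 calls in KO tumours became 0 with that filter and 5 to 10 with 1 tumour left out, 5 without KO tumour 3 or KO tumour 4. The difference of the KO effect gained 1 call with Cy3 alone. Except where fewer genes or samples were tested, the cause was not tested. With tumour as a random replicate block (estimated correlation 0.22) the 4 stromal calls were the same genes. With no replicate block 7 genes were called between stroma and epithelium (6 of them among the 9) and 7 in KO tumours (all among the 9), and the pairing changed no other count. Hoxa2 between stroma and epithelium of WT tumours turned to -0.055 with Cy3 alone. Detection on at least 2 arrays gave 10 Hox genes in KO epithelium, and detection on 3 gave 12 in KO stroma, 10 in WT stroma, 8 in KO epithelium and 10 in WT epithelium. Over the named Hox genes and all alternatives, 513 values kept their direction and side of the threshold, 76 fell short of it, 7 passed it anew and 1 reversed. The 76 all come from results called in the main fit, while the 513 include uncalled results that stayed uncalled.

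Limits: dim spots. A Hox gene not well above background has only a bound, and the offset shrinks its differences. Slide with compartment and slide row with genotype cannot be told apart, and cell content differed between KO and WT stroma. With 3 arrays a group and no dye swap, small differences could not be detected.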
